A study of Drosophila melanogaster with 25 samples.

Results

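The 9 genes described here encode contractile proteins of insect muscle, several of them best known from the flight muscle of the adult fly: Act88F, flightin (fln), TpnC4, Mlc1, Mlc2, Tm2, upheld (up), bent (bt) and myofilin (Mf). They were taken as every probe set annotated to these names, which gave 10 probe sets of 18769 without controls (9 genes of 11981 with a probe set of their own). Mf had 2 probe sets and each of the other 8 genes had 1. RNA levels were measured on 25 Affymetrix Drosophila Genome 2.0 arrays, 1 per sample, of imaginal discs from Drosophila melanogaster larvae in instar 3. Imaginal discs are the larval epithelia from which adult appendages and eyes form. Antennal discs came from larvae titled Uey and from wild-type larvae, leg discs from ato-mutant larvae with UAS-ey, from larvae with UAS-ey and from wild-type larvae, and wing discs from UAS-ey and wild-type larvae, with 3 arrays in each of these groups. The eye discs were wild type and had 4 arrays. UAS-ey is a transgene for eyeless (ey), a Pax6-type transcription factor of eye development. Ectopic ey can turn other discs toward eye tissue. Photoreceptor formation begins with the proneural gene atonal (ato). The sources used here do not give the driver of the transgene, the ato allele or what Uey stands for, and Uey was taken only as the title of its group. By its title, the study sought genes that Eyeless targets directly. The genes were chosen with their difference between Uey and wild-type antennal discs known. Every value that involves an antennal group is therefore a description without a test.

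Muscle contracts when myosin heads of the thick filament pull on actin of the thin filament. Calcium starts this by binding troponin C, which shifts the position of tropomyosin on the actin filament through the other troponins. The indirect flight muscles of the fly are stretch-activated and use some isoforms that other muscles lack or hold at low levels. Act88F is the actin gene of the indirect flight muscle and TpnC4 a troponin C gene of the same muscle, and flightin is a protein of its thick filaments. Tm2 (tropomyosin), up (troponin T), Mlc1 and Mlc2 (the essential and the regulatory light chain of muscle myosin), bt (projectin, a titin-like elastic protein) and Mf (a protein of the thick filament core) serve several muscle types. In a larval disc, the cells of the muscle lineage are the adepithelial myoblasts, precursors that lie on the epithelium and differentiate after the larval stage. In whole discs, fewer cells of a type and less RNA per cell cannot be told apart.

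Values are log2 signals as the authors deposited them. A single lowest value of 6.91 (120.5 on the linear scale) was shared by 25.3% to 33.9% of the probe sets of each array, and a gene at this value has only an upper bound there. Where all arrays of a group lay at it, a fold is written "at least". Array medians lay between 7.54 and 7.86. The Uey antennal arrays resembled each other most, with a standard deviation of the difference between arrays of 0.0846 to 0.121, against 0.137 to 0.432 in the other groups. The Antp probe sets, markers of thoracic discs, lay at the lowest value in both antennal groups, while the head gene Dfd averaged 10.51 in Uey discs and 11.24 in wild-type antennal discs. The main Antp probe set averaged 11.94 in ato-mutant and 11.22 in UAS-ey leg discs. Summed over 7 eye disc markers, the linear signal above the lowest value was 13240 to 13805 on Uey and 6644 to 6909 on wild-type antennal arrays. The phe spike control, an RNA added in the assay, was 7.89 to 9.50 on the antennal, eye and UAS-ey leg arrays and 9.77 to 11.15 on all others. UAS-ey leg discs set against either other leg group, eye set against leg or wing discs, and the difference between the leg and wing effects of UAS-ey all cross these sets, for the contractile genes and for every other gene alike. In those comparisons, named genes that lost or gained a call with the phe signal as a covariate are stated, mostly with their values. The antennal comparison, ato-mutant against wild-type leg discs, the wing comparison and leg against wing discs each lie within a set.

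The thin filament genes are taken first. Act88F had a log2 signal of 13.26, 13.24 and 13.26 on the Uey antennal arrays, against 6.91 on each of the 3 wild-type antennal arrays. It was also at the lowest value on the UAS-ey leg and wild-type eye arrays. Of the 22 arrays outside Uey, 7 lay above it, the highest being wild-type wing replicate 2 at 7.92, while the other 6 were between 6.96 and 7.03. The Uey arrays thus stood apart from every other array, and the other 7 groups, ordered by mean, each overlapped the next. The difference between Uey and wild-type antennal discs was 6.34, at least 81.1-fold, which ranked 1 among all 18769 probe sets.

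TpnC4 was still more sharply divided. Its signals were 11.57, 11.56 and 11.58 on the Uey arrays, and it lay at 6.91 on all 22 other arrays. TpnC4 was therefore not measured above the lowest value in any other disc of the series. The antennal difference was 4.66, at least 25.2-fold, with a rank of 4.

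The plot of actin and troponin C genes sets both beside other genes of their families. Act79B, the actin gene of tubular muscles such as those of the leg and the jump muscle, and TpnC41C, another adult troponin C gene, were at the lowest value on all 25 arrays. Act87E, an actin gene of larval body wall muscle, averaged 8.53 ± 0.04 in Uey discs and 8.46 ± 0.07 in wild-type antennal discs (SD, n = 3 each). TpnC73F, a troponin C gene of larval and tubular muscle, averaged 8.18 ± 0.12 in Uey discs and 8.34 ± 0.07 in wild-type antennal discs. The large antennal difference was thus seen for Act88F and TpnC4 and not for Act79B, Act87E, TpnC41C or TpnC73F. Act88F and TpnC4 were chosen with this difference known, so nothing is read from the contrast. The Act87E probe set has a suffix that the platform gives to probes shared with similar transcripts, so its signal may include other actins.

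**Figure D1:**
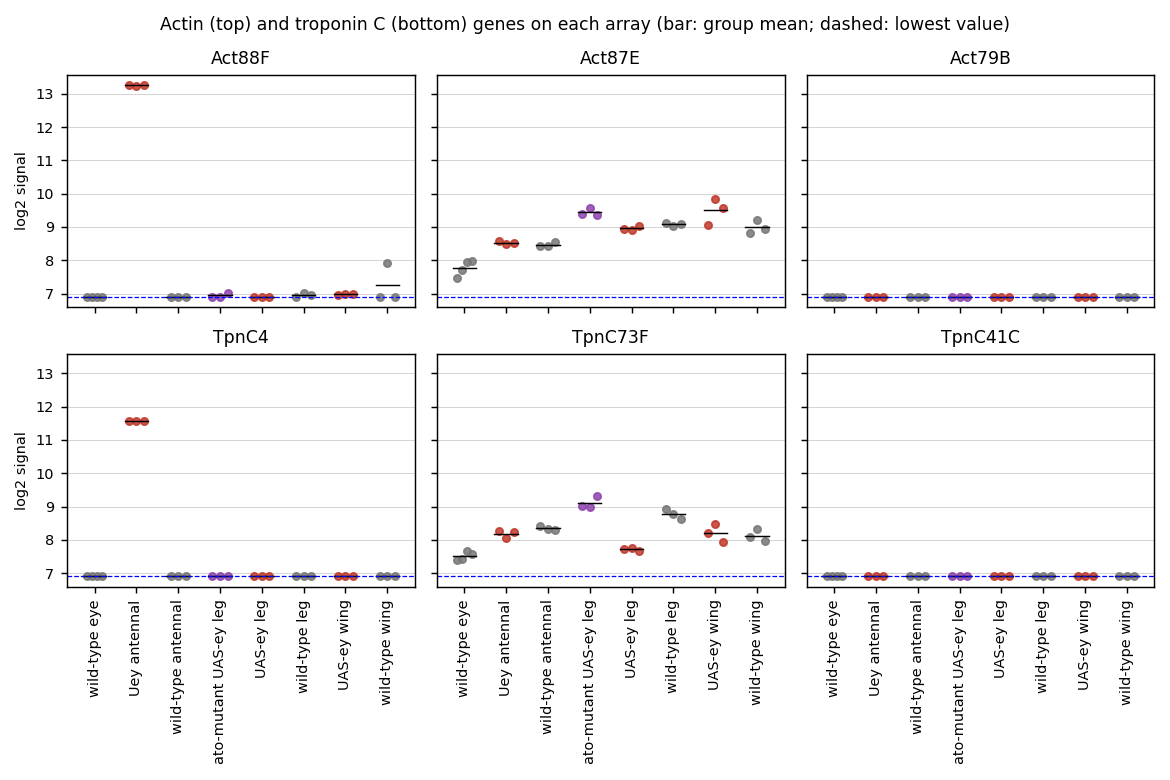
Log2 signal of 3 actin genes (top) and 3 troponin C genes (bottom) on each array, with 1 point per array, groups along the x axis, black bars at group means and a dashed line at the lowest value of 6.91. Act88F and TpnC4 were near 13.26 and 11.57 on the Uey antennal arrays, while Act79B and TpnC41C stayed at the lowest value on all 25 arrays.

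Tm2 and up, the tropomyosin and troponin T genes, were less restricted. The Tm2 probe set has the same suffix as that of Act87E, so its signal may include similar transcripts. Tm2 was 9.19, 9.35 and 9.44 on the Uey antennal arrays, against 8.16, 8.14 and 8.22 on the wild-type antennal arrays, a difference of 1.15 (2.22-fold). Ranked by group mean, Tm2 was highest in ato-mutant leg discs (9.40) and Uey antennal discs (9.33), whose arrays overlapped. The wild-type leg, UAS-ey wing, wild-type antennal, wild-type wing and UAS-ey leg means followed between 8.29 and 7.98, with neighbours overlapping, and the eye discs were lowest at 7.68. For up, the Uey antennal arrays had 9.37, 9.33 and 9.37, against 6.91, 6.98 and 6.91 in wild-type antennal discs, a difference of 2.42 (at least 5.35-fold, since 2 of the 3 wild-type arrays lay at the lowest value). The ato-mutant UAS-ey leg discs came next at a mean of 8.66 and then the wild-type leg discs at 7.81, each apart from its neighbour. All other groups averaged 6.91 to 7.02 and overlapped. Uey antennal and ato-mutant leg discs were thus the 2 highest groups for both genes, whereas Act88F and TpnC4 were high in Uey antennal discs alone.

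Among the thick filament genes, fln had the same pattern as TpnC4. Its signals were 12.69, 12.61 and 12.63 on the Uey arrays and 6.91 on all 22 other arrays, a difference of 5.73 from wild-type antennal discs, at least 53.0-fold (rank 2). Mlc2 was 10.31, 10.36 and 10.40 on the Uey arrays and 6.91 on every other array but ato-mutant UAS-ey leg replicate 3, which read 7.25. Its antennal difference was 3.44, at least 10.9-fold (rank 19). The regulatory light chain was in this way nearly as restricted as the flight muscle isoforms, although it is used in muscles generally.

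Mlc1, the essential light chain, was above the lowest value on all 25 arrays. It was 12.21, 12.23 and 12.27 on the Uey antennal arrays, against 8.38, 8.33 and 8.28 on the wild-type antennal arrays, a difference of 3.91 (15.0-fold, rank 9). Its next levels were 10.27, 10.26 and 10.02 in ato-mutant UAS-ey leg discs, followed by 8.95, 8.83 and 8.62 in wild-type leg discs. Each of these 3 groups stood apart from the next. The wild-type antennal, UAS-ey leg, UAS-ey wing and wild-type wing means lay between 8.33 and 8.10 and overlapped in order, and the eye arrays at 7.44, 7.38, 7.75 and 7.52 were lowest by mean while overlapping the wild-type wing arrays.

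The projectin gene bt followed another order, with the eye discs on top. It read 10.69, 10.66, 9.97 and 9.74 on the wild-type eye arrays and 8.88, 9.01 and 9.08 on the Uey antennal arrays, against 8.01, 8.08 and 7.94 in wild-type antennal discs. Uey was 0.98 above wild-type antennal discs (1.97-fold, rank 222). The ato-mutant UAS-ey leg arrays spread from 7.87 to 8.63 and overlapped the wild-type antennal arrays. It lay at the lowest value on all UAS-ey leg and UAS-ey wing arrays. Eye and Uey antennal discs thus held the 2 highest means of bt.

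Mf was the exception among the 9 genes, and its probe sets did not give the same picture. Probe set 1635372_a_at was 8.22, 8.09 and 8.28 on the Uey arrays, against 8.36, 8.35 and 8.25 on the wild-type antennal arrays, which overlapped (difference -0.12). Probe set 1636600_a_at was 8.34, 8.38 and 8.22 in Uey, against 8.09, 8.16 and 8.09 in wild-type antennal discs, without overlap and with a difference of 0.20. The first was highest in ato-mutant leg discs (mean 9.24) and the second in Uey antennal discs (mean 8.31). Levels of different probe sets cannot be set against each other, and which transcripts each detects is not given in the files.

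**Figure D2:**
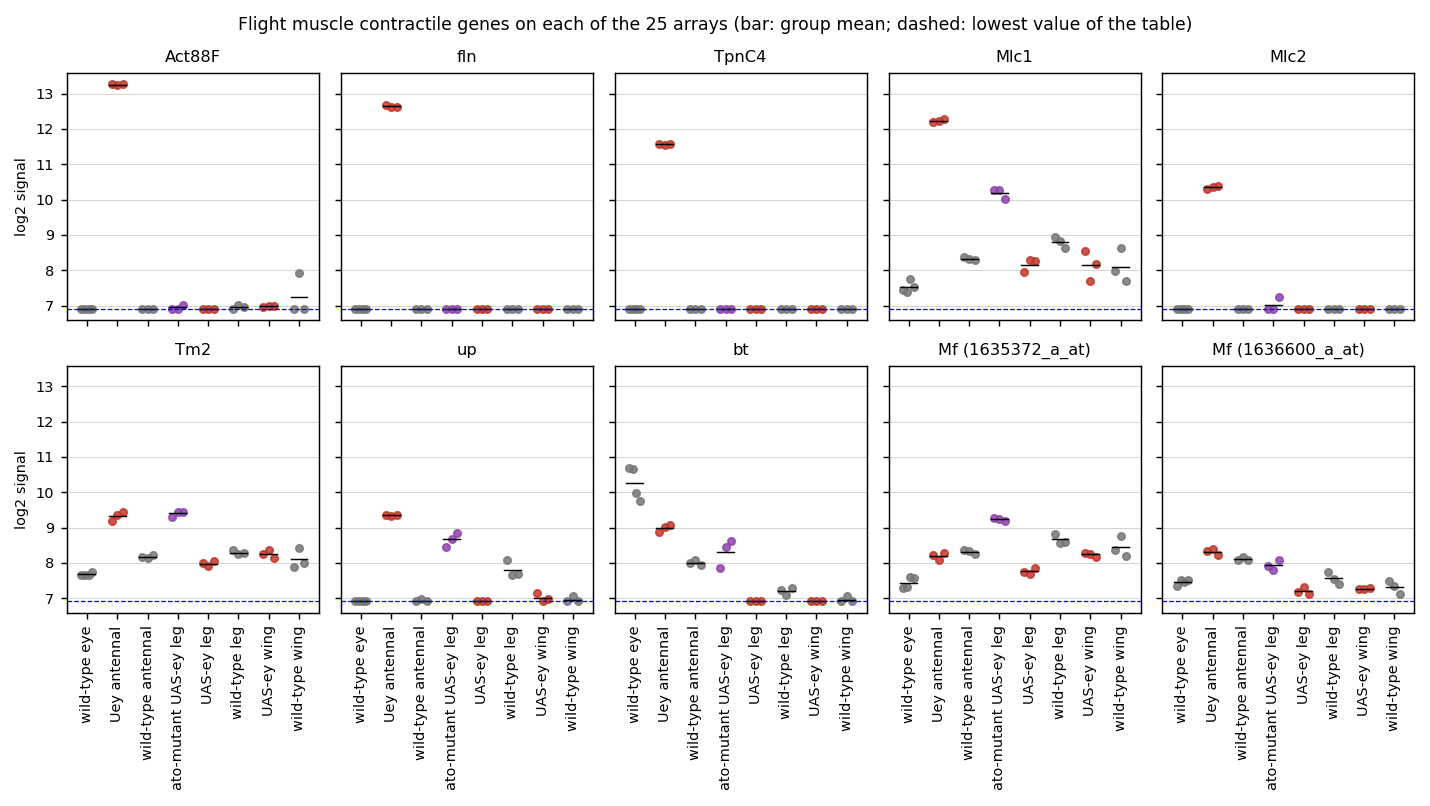
Log2 signal of the 10 probe sets on each of the 25 arrays, with 1 panel per probe set, 1 point per array, groups along the x axis, black bars at group means and a dashed line at the lowest value of 6.91. The 3 Uey antennal points stand alone for Act88F, fln, TpnC4 and Mlc2, the ato-mutant leg points come second for Mlc1 and up, and the 4 eye points are highest for bt.

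Over the 10 probe sets, 7 were at least 2-fold higher in Uey than in wild-type antennal discs, where 1.16% of all probe sets were. Uey arrays lay above the wild-type arrays without overlap for 9 of 10, against 17.0% of all probe sets. The genes had been chosen on this comparison, so nothing is read from these counts. The median difference over the 10 probe sets was 2.93, beside 0 over all probe sets. Just inside the 2-fold limit was Tm2 at 1.15 and just outside it bt at 0.98. Only 8 of all 18769 probe sets were at the lowest value on all 22 arrays outside Uey and at least 2-fold above it on average in Uey, with all 3 Uey arrays above it, and fln and TpnC4 were 2 of them.

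**Figure D3:**
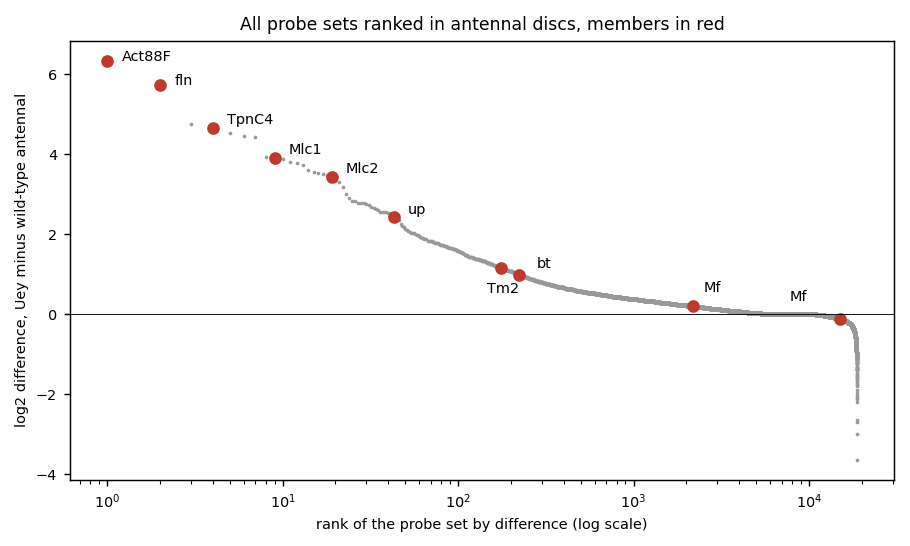
Difference in mean log2 signal, Uey minus wild-type antennal discs, of every probe set (grey) against its rank on a log scale, with the 10 probe sets of the contractile genes in red. Act88F, fln and TpnC4 hold ranks 1, 2 and 4, bt lies at rank 222, and the Mf probe sets lie near 0.

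The 9 genes do not lie together in the genome. In the RefSeq table of assembly Release 6, Act88F, Mlc1, Mlc2, Tm2 and Mf are on chromosome arm 3R, fln is on 3L, TpnC4 on 2R, up on X and bt on chromosome 4. The closest were Mf and Tm2, with 35 genes between them, and Tm2 and Act88F, with 36.

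In leg discs, where the comparisons were not used to choose the genes, Mlc1, Tm2, up and both Mf probe sets were lower with UAS-ey and higher in the ato mutant, where bt was higher too. Act88F, fln, TpnC4 and Mlc2 had no call. In UAS-ey against wild-type leg discs, 5 of 10 probe sets were lower and 0 higher by limma at an adjusted p under 0.05, where 10.3% of all probe sets were lower and 9.02% higher. The troponin T gene up lay at 6.91 on all 3 UAS-ey leg arrays, against 8.09, 7.65 and 7.68 on the wild-type leg arrays. All UAS-ey arrays were thus below the range of the wild-type arrays, at least 1.86-fold lower (log2 difference -0.89, SE 0.10, adjusted p = 4.31e-06, limma). Mf fell by both probe sets, to 7.74, 7.68 and 7.86 in UAS-ey leg discs for 1635372_a_at, against 8.83, 8.57 and 8.60 in wild-type leg discs (log2 difference -0.91, SE 0.12, adjusted p = 2.37e-05, limma), and for 1636600_a_at by 0.36 (SE 0.09, adjusted p = 0.00883, limma).

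Mlc1 and Tm2 fell by less and near the threshold. Mlc1 was 7.94, 8.30 and 8.25 in UAS-ey leg discs, against 8.95, 8.83 and 8.62 in wild-type leg discs, without overlap (log2 difference -0.64, SE 0.20, adjusted p = 0.033, limma). Tm2 was between 7.90 and 8.05 in UAS-ey leg discs, against 8.37, 8.24 and 8.27 in wild-type leg discs (log2 difference -0.31, SE 0.10, adjusted p = 0.036, limma). For bt the UAS-ey leg arrays were at 6.91 and the wild-type leg arrays at 7.22, 7.10 and 7.29, a difference of -0.29 that did not pass (adjusted p = 0.41, limma), although the arrays did not overlap. The count of 5 fell to 3 without UAS-ey leg replicate 1 or wild-type leg replicate 2 and to 2 without wild-type leg replicate 1, with up and Mf 1635372_a_at called each time. The phe control was 8.37 to 8.65 on the UAS-ey leg arrays and 10.37 to 10.89 on the wild-type leg arrays, and with it as a covariate 2 probe sets were called, up at -0.84 (adjusted p = 0.0126, limma) and bt at -1.06 (adjusted p = 0.05, limma). Mlc1 and Tm2 then lost their calls, at -0.21 and -0.13 (adjusted p = 0.986 and 0.939, limma). So did Mf 1635372_a_at at -0.51 and Mf 1636600_a_at at -0.37 (adjusted p = 0.134 and 0.31, limma).

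In ato-mutant UAS-ey against wild-type leg discs, 6 of 10 probe sets rose and 0 fell, where 12.3% of all probe sets rose and 8.87% fell. Mlc1 reached 10.27, 10.26 and 10.02 in ato-mutant leg discs, well above the wild-type leg arrays given above, which was 2.61-fold (log2 difference 1.38, SE 0.20, adjusted p = 6.86e-05, limma). Tm2 was 9.31, 9.44 and 9.45 in ato-mutant leg discs, against a highest wild-type leg value of 8.37 (log2 difference 1.11, SE 0.10, adjusted p = 2.44e-07, limma). The troponin T gene up had 8.46, 8.68 and 8.85 in ato-mutant leg discs, again above all wild-type leg arrays (log2 difference 0.86, adjusted p = 4.26e-06, limma). Projectin rose as well, with bt at 7.87, 8.44 and 8.63 in ato-mutant leg discs against 7.22, 7.10 and 7.29 in wild-type leg discs (log2 difference 1.11, SE 0.20, adjusted p = 0.000593, limma). Mf rose by 0.57 for 1635372_a_at and by 0.38 for 1636600_a_at (adjusted p = 0.00154 and 0.00555, limma).

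The 4 remaining genes showed no call in ato-mutant leg discs. TpnC4 and fln were at the lowest value on every leg array. Act88F was 6.91, 6.91 and 7.03 in ato-mutant leg discs, against 6.91, 7.03 and 6.96 in wild-type leg discs, ranges that overlap. For Mlc2, ato-mutant leg replicate 3 read 7.25 and the other 2 arrays 6.91, against 6.91 on all wild-type leg arrays (log2 difference 0.11, adjusted p = 0.176, limma). With the arrays of the 2 groups alone in the fit, 3 of the 6 calls stood, those of Mlc1, Tm2 and Mf 1635372_a_at, while up and bt had adjusted p = 0.0676 and 0.0653 (limma).

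Ato-mutant UAS-ey leg discs were also compared with UAS-ey leg discs, which share their arrays with both comparisons above. The same 6 probe sets rose and 0 fell, where 14.5% of all probe sets rose and 9.03% fell. The difference was 1.75 for up (at least 3.37-fold, adjusted p = 7e-10, limma), 2.02 for Mlc1 (4.06-fold, adjusted p = 1.39e-06, limma) and 1.41 for Tm2 (2.67-fold, adjusted p = 1.57e-08, limma). It was 1.40 for bt (at least 2.64-fold, adjusted p = 6.79e-05, limma), and 1.48 and 0.73 for the Mf probe sets. For each of the 6, the 3 ato-mutant arrays lay above the 3 UAS-ey arrays. The phe control was 10.53 to 11.15 in ato-mutant and 8.37 to 8.65 in UAS-ey leg discs, and with it as a covariate the difference of Mlc1 was 1.53 (adjusted p = 0.0547, limma).

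**Figure D4:**
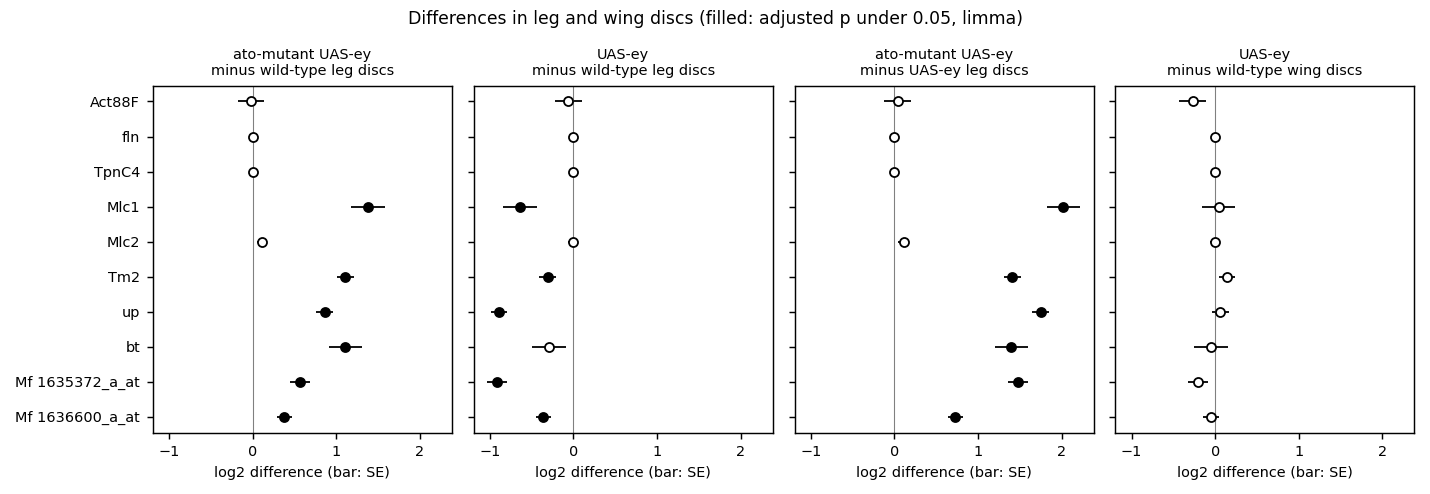
Log2 differences of the 10 probe sets in leg and wing discs (x axis, points with bars of 1 SE on each side), with filled points where the limma adjusted p was under 0.05. Of the 10 probe sets, 6 are filled to the right in both comparisons of ato-mutant leg discs, 5 are filled to the left in UAS-ey against wild-type leg discs, and none is filled in wing discs.

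Muscle genes outside the 9 were counted from lists by role. The muscle myosin heavy chain gene Mhc and the troponin I gene wupA had no probe set annotated to them alone and were not analysed here. Among 4 measured thin filament genes, TpnC73F was the only call in UAS-ey against wild-type leg discs, where it fell by 1.06 (SE 0.13, adjusted p = 1.2e-05, limma), and the only call in ato-mutant against UAS-ey leg discs, where it rose by 1.41 (adjusted p = 3.68e-07, limma). Of 4 thick filament and titin-like genes, unc-45, a myosin chaperone, fell by 0.47 in UAS-ey against wild-type leg discs (adjusted p = 0.000258, limma) and was 0.54 higher in ato-mutant than in UAS-ey leg discs (adjusted p = 5.73e-05, limma). With the phe control as a covariate, the first comparison gave -0.79 for TpnC73F (adjusted p = 0.0537, limma) and -0.57 for unc-45 (adjusted p = 0.0262, limma), and in the second both still passed. That alternative was chosen for genes outside the 9 after the data were seen. Of all probe sets, 10.3% fell in the first comparison and 14.5% rose in the second. In ato-mutant against wild-type leg discs, 0 of the 4 thin filament genes and 0 of the 4 thick filament and titin-like genes were called. Of 2 measured actin genes, 0 were called there, where 12.3% of all probe sets rose and 8.87% fell. These counts rest on the probe set with the highest mean of each gene. Another probe set of the paramyosin gene Prm (1628105_a_at), not counted, averaged higher in ato-mutant than in wild-type leg discs and is given below.

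The 10 Z-disc and attachment genes were divided. In UAS-ey against wild-type leg discs 4 rose and 2 fell, where 9.02% and 10.3% of all probe sets did. The fallers were Zasp66, a Z-disc protein gene, at -1.48 (adjusted p = 0.000374, limma) and Mlp84B, a muscle LIM protein gene, at -0.59 (adjusted p = 0.00859, limma). The integrin gene if rose by 1.07 (adjusted p = 0.000764, limma). In ato-mutant against UAS-ey leg discs 5 rose and 1 fell, where 14.5% and 9.03% of all probe sets did. Zasp66 was then at 1.78 and Mlp84B at 0.83 (adjusted p = 4.99e-05 and 0.000546, limma). Many Z-disc and attachment genes, such as if, are also used in epithelia. Act87E was 0.47 higher in ato-mutant than in UAS-ey leg discs (adjusted p = 0.0292, limma), and Act79B stayed at the lowest value. With the phe control as a covariate, none of these genes passed in either comparison. Zasp66 was then at -0.93 and Mlp84B at 0.01 in UAS-ey against wild-type leg discs (adjusted p = 0.327 and 1.0, limma), if was at 1.01 (adjusted p = 0.158, limma), and Act87E was at -0.12 in ato-mutant against UAS-ey leg discs, a turn of direction. In ato-mutant against wild-type leg discs, 5 of the 10 Z-disc and attachment genes rose and 0 fell, where 12.3% and 8.87% of all probe sets did.

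Genes of muscle precursors moved in both directions in the leg comparisons. Of 9 measured myoblast genes, 2 rose and 1 fell in UAS-ey against wild-type leg discs, where 9.02% of all probe sets rose and 10.3% fell. In ato-mutant against wild-type leg discs 1 rose and 2 fell, where 12.3% and 8.87% did. In ato-mutant against UAS-ey leg discs 2 rose and 3 fell, where 14.5% and 9.03% did. With 9 genes, nothing is read from counts this small. The mesodermal gene twi, which marks the adult myoblasts, averaged 9.95 in ato-mutant, 9.86 in UAS-ey and 9.97 in wild-type leg discs. Him, a gene of undifferentiated myoblasts, was 0.62 lower in UAS-ey than in wild-type leg discs (adjusted p = 0.0194, limma), and 0.88 lower with the phe control as a covariate (adjusted p = 0.161, limma). Summed over the 9 genes, the linear signal above the lowest value was 6572 to 7534 on ato-mutant, 7591 to 9195 on UAS-ey and 6071 to 7395 on wild-type leg arrays, while that of the 10 contractile probe sets was 2590 to 2788, 378 to 460 and 903 to 1191 on the same arrays. In antennal discs, the sum of the myoblast genes was 7553 to 8009 on Uey arrays and 5103 to 5410 on wild-type arrays. Of the same list, rst averaged 12.23 in Uey and 11.45 in wild type, blow 11.19 and 10.54, and kirre 9.18 and 8.77, whereas twi averaged 8.21 in Uey and 8.88 in wild type, zfh1, another myoblast factor, 7.81 and 8.59, and htl 7.93 and 8.51. Him was at the lowest value in both. The contractile sum there was 26321 to 26829 in Uey and 830 to 889 in wild type. On wild-type eye arrays the myoblast sum was 9119 to 10358. A linear sum weighs the strongest genes most, and rst was the strongest of those given here for antennal discs. The sum is therefore not a measure of the amount of myoblasts.

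Of 5 measured regulators of muscle fate, 2 fell in UAS-ey against wild-type leg discs, ap by 1.05 (adjusted p = 0.00225, limma) and vg by 1.41 (adjusted p = 0.0204, limma). In ato-mutant against wild-type leg discs 2 rose, the spalt genes salm and salr (log2 differences 1.42 and 0.85, adjusted p = 0.00859 and 0.0323, limma), and against UAS-ey leg discs vg and ap rose (2.29 and 1.05, adjusted p = 0.000464 and 0.00199, limma). These genes also pattern the disc epithelium. Of all probe sets, 10.3% fell in the first of these comparisons, 12.3% rose in the second and 14.5% rose in the third. With the phe control as a covariate, vg and ap had no call in either comparison with UAS-ey leg discs (adjusted p = 0.117 to 0.244, limma).

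Markers of tissues that can cling to a dissected disc differed between the same groups. In ato-mutant against wild-type leg discs, 12.3% of all probe sets rose and 8.87% fell. Of 9 haemocyte (blood cell) markers, 8 rose there, led by Hml at 3.25 (adjusted p = 2.52e-06, limma). Their summed signal was 21067, 3138 and 14797 on the ato-mutant arrays, against 900 to 1931 on the wild-type leg arrays. Of 4 fat body markers 2 rose, Fbp2 and apolpp, each by 3.20 (adjusted p = 0.0016 and 0.0279, limma), and the fat body sum was 32026 to 44955 on ato-mutant, 1641 to 9454 on UAS-ey and 3715 to 7637 on wild-type leg arrays. Salivary gland markers rose for 3 of 10, the new-glue genes ng1, ng2 and ng3, and 1 fell, with sums of 8473 to 28333 on ato-mutant, 1615 to 2609 on UAS-ey and 9870 to 16385 on wild-type leg arrays. The part of these tissues in the leg disc differences was not tested.

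Tendon markers, which mark the epidermal cells that muscles attach to, moved with the contractile genes in part. In UAS-ey against wild-type leg discs 2 of 3 fell, where stripe (sr) fell by 2.63 and the thrombospondin gene Tsp fell by 0.92 (adjusted p = 6.54e-10 and 5.01e-07, limma). In ato-mutant against UAS-ey leg discs all 3 rose, Tsp by 1.45 (adjusted p = 1.18e-09, limma). Against wild-type leg discs, ato-mutant discs had higher Tsp and slow but sr 1.07 lower. Of all probe sets, 10.3% fell in the first of these comparisons and 14.5% rose in the second. In the third, 12.3% rose and 8.87% fell. The distance between the GAPDH 3′ and 5′ control probe sets, which grows with RNA degradation or shorter amplified product, was 2.76 to 3.29 in ato-mutant, 2.01 to 2.27 in UAS-ey and 1.79 to 1.93 in wild-type leg discs. Its part was not tested.

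In the antennal discs, these markers were lower or similar in Uey. Fat body sums were 181 to 214 on Uey and 631 to 737 on wild-type antennal arrays, with apolpp at the lowest value on all Uey arrays. Haemocyte sums were 546 to 570 on Uey and 2193 to 2305 on wild-type antennal arrays, with 4 of the 9 markers (He, Sr-CI, eater and PPO1) at the lowest value on all Uey arrays, Sr-CI on all wild-type antennal arrays, and none on the ato-mutant leg arrays. Salivary gland sums were 1627 to 1697 on Uey and 1805 to 2037 on wild-type antennal arrays, and tendon sums 3780 to 4108 on Uey and 4781 to 5134 on wild-type antennal arrays. The part of these tissues in the antennal difference was not tested.

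**Figure D5:**
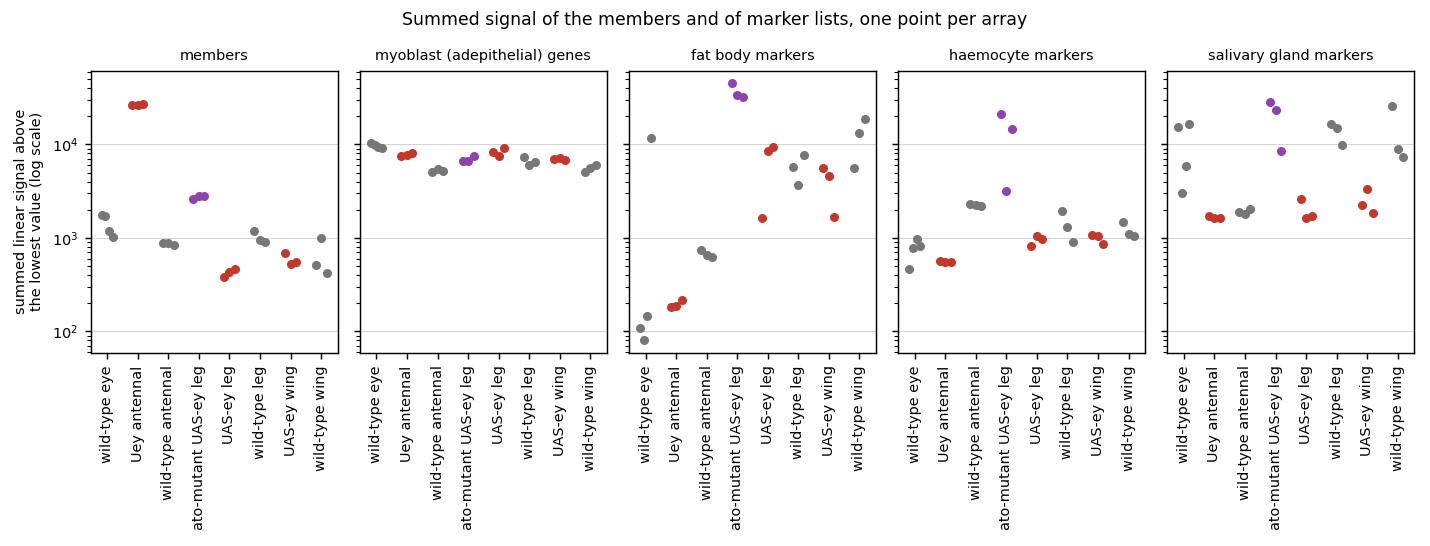
Linear signal above the lowest value, summed over the contractile probe sets and over 4 marker lists, with 1 point per array on a log scale and groups along the x axis. Contractile sums peak in Uey antennal discs (26321 to 26829) and then in ato-mutant leg discs (2590 to 2788), whereas fat body and haemocyte sums peak in ato-mutant leg discs and are low in Uey antennal discs.

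In wing discs, no member passed the test between UAS-ey and wild type by limma, where 5.32% of all probe sets passed in either direction. None had an unadjusted p under 0.05 either. The smallest p was that of Mf 1635372_a_at, with 8.29, 8.26 and 8.17 in UAS-ey wing discs against 8.36, 8.77 and 8.21 in wild-type wing discs, ranges that overlap (log2 difference -0.21, SE 0.12, adjusted p = 0.445, limma). Mlc1 was 8.55, 7.70 and 8.17 in UAS-ey against 7.99, 8.62 and 7.70 in wild-type wing discs, where arrays of both groups were high and low (log2 difference 0.04, SE 0.20). Wild-type wing replicate 2 had the highest wild-type wing value of Act88F, Mlc1, Tm2, up, bt and Mf 1635372_a_at. Without it, Tm2 was 0.30 higher in UAS-ey wing discs (adjusted p = 0.0268, limma) and the count was 1.

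The measured effect of UAS-ey differed between leg and wing discs for 2 probe sets. Of all probe sets, 2.91% had a more negative effect in leg discs. For up, the effect in leg discs minus that in wing discs was -0.95 (SE 0.14, adjusted p = 0.00106, limma). The wild-type wing arrays of up lay at 6.91, 7.05 and 6.91, so a fall in wing discs could hardly be measured. The value for up therefore does not show that wing discs respond less. For Mf 1635372_a_at the same difference was -0.71 (SE 0.16, adjusted p = 0.0169, limma). For Tm2 it was -0.45 (adjusted p = 0.0825, limma), which did not pass. This difference sets UAS-ey leg arrays, with a phe control of 8.37 to 8.65, against leg and wing arrays of 9.77 to 11.11. With the phe control as a covariate, an alternative chosen after the data were seen, neither passed: up was at -0.88 (adjusted p = 0.305, limma) and Mf 1635372_a_at at -0.17 (adjusted p = 1.0, limma). Without wild-type leg replicate 1 the Mf value was -0.62 (adjusted p = 0.0572, limma), and without wild-type wing replicate 2 Mlc1 at -0.93 and Tm2 at -0.61 also passed (adjusted p = 0.0348 and 0.00294, limma).

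Among wild-type discs, leg and wing differed in a single member. The troponin T gene up was 8.09, 7.65 and 7.68 in leg discs and 6.91, 7.05 and 6.91 in wing discs, without overlap (log2 difference 0.85, SE 0.10, adjusted p = 1.72e-05, limma), where 2.24% of all probe sets were higher in leg discs. Mlc1 was 0.70 higher in leg discs with an adjusted p of 0.0533 (limma). Without wild-type wing replicate 2, Mlc1 at 0.96 and Tm2 at 0.35 also passed, and the count was 3. Without wild-type leg replicate 3 or wild-type wing replicate 1 it was 2, and with the arrays of both groups alone in the fit it was 0 (adjusted p = 0.134 for up, limma).

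Wild-type eye discs differed from the thoracic discs chiefly in bt. It was 10.69, 10.66, 9.97 and 9.74 in eye discs, against 7.22, 7.10 and 7.29 in leg discs and 6.91, 7.06 and 6.91 in wing discs. All eye arrays were above all others, 8.35-fold against leg discs (log2 difference 3.06, SE 0.19, adjusted p = 6.32e-10, limma) and at least 9.85-fold against wing discs, where 2 of 3 arrays lay at the lowest value (log2 difference 3.30, adjusted p = 2.07e-10, limma). In eye against leg discs, 1 probe set was higher and 4 were lower, where 6.60% and 9.75% of all probe sets were. The lower ones were Mlc1 at -1.28, Mf 1635372_a_at at -1.23, up at -0.89 and Tm2 at -0.61. In eye against wing discs, 1 was higher and 3 were lower, where 9.50% and 20.1% of all probe sets were. These were Mf 1635372_a_at at -1.01, Mlc1 at -0.58 and Tm2 at -0.42. The Mlc1 value was -0.32 without wild-type wing replicate 2 (adjusted p = 0.224, limma), and its call was also lost after quantile normalization, after centring, with both groups alone in the fit and without eye replicate 1 or 2. The phe control separates these groups too (7.89 to 9.49 in eye discs, 9.77 to 10.89 in wild-type discs of the leg and wing). With it as a covariate the difference of bt was 2.32 against leg discs and 2.67 against wing discs, while Mlc1 and Tm2 no longer passed.

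TpnC73F and Act87E followed the lower members of the eye disc. TpnC73F was 1.27 lower in eye than in leg discs and 0.62 lower than in wing discs, and Act87E 1.31 and 1.22 lower (adjusted p = 2.16e-07, 0.000712, 1.67e-06 and 3.79e-06, limma). With the phe control as a covariate, TpnC73F was at -0.40 against wing discs (adjusted p = 0.301, limma) and the other 3 values still passed. Tropomodulin (tmod), which caps thin filaments and is also used in neurons, was 0.60 and 0.77 higher (adjusted p = 6.17e-05 and 3.02e-06, limma). Fat body sums were 109, 81 and 146 on eye replicates 1 to 3 and 11754 on replicate 4, which had the lowest eye value of bt, 9.74.

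The genes most like Act88F and Mlc1 were found by the root mean square difference between profiles of the 8 group means, each relative to its own mean over the groups, as a description. Among the members, fln was nearest to Act88F (0.21), then TpnC4 (0.54), Mlc2 (0.95) and Mlc1 (1.12). Outside the members, COX7AL2 was nearest (0.91), a gene named as a cytochrome c oxidase subunit. Its mean was 10.46 in Uey antennal discs and 6.91 to 6.98 in all other groups. Scp1, named as a sarcoplasmic calcium-binding protein, followed at 1.23, with 9.47 in Uey antennal discs and 6.91 on every other array. TwdlT (1.34), Snap25 (1.54), mtg (1.55) and Elovl7 (1.60) came after them.

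For Mlc1, the nearest members were up (0.63) and Mlc2 (0.71), and outside the members COX7AL2 (0.74), krimp (0.80), Scp1 (0.84), Gpdh1 (0.84), Tret1-1 (0.99) and atilla (1.01). Gpdh1, the glycerol-3-phosphate dehydrogenase gene of the shuttle that flight muscle uses, averaged 10.58 in Uey against 8.96 in wild-type antennal discs, and 10.39 in ato-mutant, 9.09 in UAS-ey and 9.05 in wild-type leg discs. By the probe set used here, 1616608_a_at, Uey antennal and then ato-mutant leg discs were highest for Gpdh1, as for Mlc1. The other probe sets of Gpdh1 gave other orders of the groups and are described below. Mlc1, however, was lower in UAS-ey (8.16) than in wild-type leg discs (8.8), which Gpdh1 was not. Likeness here rests on 8 group means, and most of it on the Uey antennal value.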

How the data were processed

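Total RNA was extracted with Trizol, and 100 ng per sample was amplified in 2 cycles and labelled with biotin, per the labels' protocols. The authors deposited 1 log2 value per probe set. How probes were summarised and arrays scaled is not given in the sources used here, and the log2 scale and the lowest value were read from the values. Of 18952 probe sets, 183 controls were left out. Genes were named from the platform annotation, where a probe set had 1 gene. Groups came from the sample titles. The series text calls the samples biological triplicates, and nothing further says how they were collected. The p-values therefore set a group difference against the spread between these samples, pooled over the groups in the fit.

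Differences were tested with limma 3.58.1 in R 4.3.3, with 1 mean per group on all 25 arrays (17 residual and 0.45 prior degrees of freedom), two-sided, with Benjamini-Hochberg adjustment over 18769 probe sets and a threshold of 0.05. An adjusted p here is limma's. For genes at the lowest value in some groups, the standard error can understate the spread. The procedure was tested on simulated data. The precision is limited by the number of arrays. Every probe set of the 9 genes is named. Other genes were named from lists by role (at most 3 with the smallest adjusted p per list and comparison, represented by the probe set with the highest mean), and further ones were chosen after their values were seen. The members and the lists were chosen with earlier results of these data known. Alternatives were quantile normalization, centring on the median, leaving out probe sets at the lowest value, another variance prior, fits on 2 groups, a replicate block, the phe control as a covariate and leaving out each array. For the difference between leg and wing effects, and with the phe covariate for genes outside the 9, alternatives were added after the data were seen. No genome sequence was used here.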

Additional observations from a re-analysis of the deposited data

Results flagged for a closer look

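Tm2 was set apart in the wild-type eye discs by a single array. The 4 eye arrays read 7.65, 7.67, 7.65 and 7.75, and the gap of the highest to the next was 0.859 of the whole range, above Dixon's limit for 4 values. The range is narrow, about 0.1 on the log2 scale, and chance alone sets apart about 1 in 20 groups.

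For 2 probe sets the measured effect of UAS-ey differed between leg and wing discs in a test of the difference itself. The effect in leg discs minus that in wing discs was -0.95 for the troponin T gene up and -0.71 for Mf 1635372_a_at. For up, all UAS-ey leg arrays were at the lowest value and all wing arrays at or near it. A fall of up in wing discs could therefore hardly be measured. With the phe control as a covariate, chosen after the data were seen, neither passed: up was at -0.88 (adjusted p = 0.305, limma) and Mf 1635372_a_at at -0.17 (adjusted p = 1.0, limma).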

How the results depend on the processing

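For the count of members called, 77 of 93 values under the alternatives stayed within 1.5 times the reported one and 16 did not. In UAS-ey against wild-type leg discs, 5 probe sets were called as reported, 3 after quantile normalization, 2 with the phe control as a covariate and 2 to 4 when an array was left out. In ato-mutant UAS-ey against wild-type leg discs, 6 were called, 3 with the arrays of the 2 groups alone and 6 to 7 when an array was left out, and against UAS-ey leg discs 6 to 7, Mlc2 joining without ato-mutant replicate 1 or 2. In UAS-ey against wild-type wing discs, 0 were called and 0 to 1 when an array was left out. In wild-type leg against wing discs, 1 was called, 2 after centring, 2 without the probe sets at the lowest value, 0 with both groups alone and 1 to 3 when an array was left out. In wild-type eye against leg discs, 5 were called and 3 with the phe control as a covariate. In eye against wing discs, 4 were called, 6 after centring (fln, TpnC4 and Mf 1636600_a_at gained, Mlc1 lost), 2 with both groups alone, 2 with the phe control as a covariate and 3 to 5 when an array was left out. In the single probe sets no called difference changed direction, 39 of 930 values lost a call and 19 gained one, and the causes were not tested. Centring moves the lowest value with each array's median, which by construction gave fln and TpnC4 a difference of 0.16 in eye against wing discs. For the difference between the leg and wing effects, alternatives were added after the data were seen, and up kept its call whichever array was left out but not with the phe covariate. The antennal differences of Act88F were 6.32 to 6.37 under quantile normalization and centring.

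The titles give the groups the same replicate numbers. Deviations of same-numbered arrays correlated between -0.38 and 0.35, and the numbers were not treated as pairs. With the replicate number as a block, 4 probe sets were called in UAS-ey against wild-type leg discs, where Mlc1 was at -0.64 with an adjusted p of 0.0546 (limma), and 3 in wild-type eye against wing discs, where Mlc1 had an adjusted p of 0.0573 (limma). The counts of the other 5 comparisons were the reported ones (6, 6, 0, 1 and 5).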

Other observations

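Some probe sets of other muscle genes were higher in Uey than in wild-type antennal discs, while other probe sets of the same genes were not. They were chosen after their values were seen and carry no test. Gpdh1 had 4 probe sets. Probe set 1634893_at averaged 11.45 in Uey antennal discs, against 6.91 in wild-type antennal discs, at least 23.2-fold, and 6.91 to 7.29 in the other 6 groups. Probe set 1636311_at was instead at the lowest value in both antennal groups and averaged 10.34 in ato-mutant UAS-ey leg discs, against 6.91 in UAS-ey and wild-type leg discs. Probe set 1625949_at averaged 9.15 in Uey discs and 9.33 in wild-type antennal discs.

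Strn-Mlck, a gene of the titin and myosin light chain kinase family, had a probe set, 1630501_a_at, at 10.40 in Uey antennal discs and at the lowest value on all 22 other arrays, at least 11.2-fold. Its probe set 1624063_at averaged 8.84 in Uey discs and 8.94 in wild-type antennal discs, and its probe set 1634574_a_at is not described here. The paramyosin gene Prm had 8.34 in Uey discs and 6.91 in wild-type antennal discs by 1628105_a_at, which also averaged 8.19 in ato-mutant, 6.91 in UAS-ey and 7.15 in wild-type leg discs, while 1632854_s_at averaged 8.34 in Uey discs and 8.17 in wild-type antennal discs. RyR, the calcium release channel gene of the sarcoplasmic reticulum, averaged 7.69 in Uey discs and 6.91 in wild-type antennal discs, and was 0.41 higher in ato-mutant than in wild-type leg discs (adjusted p = 0.000163, limma). RyR and Gpdh1 belong to the list of muscle excitation and energy genes, which moved in both directions. Of its 6 measured genes, 3 rose and 2 fell in ato-mutant against wild-type leg discs, where 12.3% and 8.87% of all probe sets did. Against UAS-ey leg discs 3 rose and 1 fell, where 14.5% and 9.03% did.

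The 6 probe sets that joined fln and TpnC4 in being above the lowest value in Uey antennal discs alone, at least 2-fold on average, belonged to CG15617, CG12105, Strn-Mlck, Scp1, CG43218 and CG5646, with at least 13.7-fold for CG15617 and at least 3.05-fold for CG5646. In ato-mutant leg discs, 32 probe sets were restricted in the same way, and none belonged to the 9 contractile genes.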
